A study of Homo sapiens with 12 samples.

Results

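The core genes of Notch signalling were followed across histone deacetylase inhibition and Smoothened inhibition in MDA-MB-468 cells, a human triple-negative breast cancer line. They were picked by gene name and are 10 of the 59324 genes in the table: the receptors NOTCH1, NOTCH2 and NOTCH3, the ligands JAG1, JAG2 and DLL1, the target genes HES1, HEY1 and NRARP, and the DNA-binding factor RBPJ. All 10 names were found. RNA sequencing of total RNA gave 12 libraries in 4 groups of 3. In the combination group cells were pretreated with sonidegib (10 µM, 72 h) and given SAHA (10 µM, 12 h). The SAHA group received SAHA alone (10 µM, 12 h), the sonidegib group received sonidegib alone (10 µM, 72 h), and the control group is labelled only as control. SAHA, also known as vorinostat, blocks histone deacetylases of the zinc-dependent classes. Sonidegib blocks Smoothened, which relays the Hedgehog signal at the membrane. Separate cultures are not mentioned in the labels, so p-values here rest only on the spread between libraries within groups, which may be technical. In the gene tests that spread was pooled over the 4 groups and drawn toward a trend over all tested genes. The labels also do not give the vehicle, or how long the control cells were kept.

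Notch receptors are single-pass membrane proteins that are activated by ligands on neighbouring cells. Ligand binding exposes the receptor to ADAM proteases and then to gamma-secretase, which releases the intracellular domain. That domain enters the nucleus, binds RBPJ and Mastermind proteins, and turns on genes such as HES1, HEY1 and NRARP. In the mammary gland the pathway takes part in luminal cell fate, and several receptors and ligands have been studied in basal-like breast cancer.

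The stretch of 250 bases before the annotated start is shown for HES1 and NRARP, target genes that, like the receptor NOTCH3, were called lower with SAHA and higher with sonidegib, and for NOTCH3 itself. The sequences are from RefSeq, build GRCh38.p14, and run 5′ to 3′ on the strand of the gene, which is plus for HES1 (chr3:194135898-194136147) and minus for NRARP (chr9:137302272-137302521) and NOTCH3 (chr19:15200996-15201245). Capitals mark TGGGAA, the core of the motif that RBPJ is known to bind, which was searched on both strands (TGGGAA and TTCCCA).
HES1: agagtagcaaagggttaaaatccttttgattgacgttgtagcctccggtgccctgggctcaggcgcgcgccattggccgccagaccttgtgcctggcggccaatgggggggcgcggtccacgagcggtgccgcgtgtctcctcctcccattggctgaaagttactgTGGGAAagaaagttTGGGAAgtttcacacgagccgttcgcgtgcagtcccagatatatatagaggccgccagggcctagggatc
NRARP: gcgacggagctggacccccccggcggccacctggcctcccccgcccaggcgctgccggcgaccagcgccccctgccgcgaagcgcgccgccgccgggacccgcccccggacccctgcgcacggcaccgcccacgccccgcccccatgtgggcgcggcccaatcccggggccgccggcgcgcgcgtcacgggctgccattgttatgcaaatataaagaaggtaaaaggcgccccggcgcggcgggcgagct
NOTCH3: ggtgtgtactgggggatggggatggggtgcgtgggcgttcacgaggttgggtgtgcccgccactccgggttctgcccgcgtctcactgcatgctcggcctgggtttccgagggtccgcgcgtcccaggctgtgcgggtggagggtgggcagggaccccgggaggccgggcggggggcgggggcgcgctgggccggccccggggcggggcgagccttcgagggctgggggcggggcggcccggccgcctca

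HES1 held the core at 84 and 70 bases before its start, both on the strand of the gene, and the first of these lay within the longer form GTGGGAA. The windows of NRARP and NOTCH3 held none of these letters, which says nothing about binding elsewhere. RefSeq starts were matched for 8 of the 10 genes, not for DLL1 and HEY1. These 8 genes had 12 windows, since RBPJ has 5 annotated starts. Besides HES1, RBPJ had matches, at 115 bases on the opposite strand and at 72 bases on its own strand before the same start. Both lay within the longer form. The core occurred in 20.8% of all 35116 windows of this length, and at least 2 copies in 2.90%. The longer form, which contains the core, occurred in 5.43%, and at least 2 copies of it in 0.174%. A match in a window is a description of its letters only.

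Values were TPM, which divide by transcript length and by the library's total, so levels of different genes are compared here per length. The read depth behind them is unknown. A library had 20125 to 21402 genes above 0. Changes were tested with limma on log2(TPM + 1) over the 13937 genes that averaged 1 TPM or more, and a gene was called higher or lower at an adjusted p under 0.05. They are given as log2 differences ± SE with the 95% interval where useful, and the added 1 makes changes of genes near 1 TPM smaller than the ratio of their TPM. Levels are mean ± SD, n = 3 libraries. The cells had EGFR between 516.07 and 677.85 TPM and no more than 1.76 TPM of ESR1, and PGR was listed at 0 throughout, as known for this line. EGFR is one of 6 epithelial and basal markers, none at 0 in all libraries, whose sum was 3150.3 to 3302 TPM in the combination, 5237 to 5463 with SAHA, 2906 to 2999.9 with sonidegib and 4705 to 5079 in control. KRT8, a keratin of simple epithelia, averaged 1311 TPM in the combination, 2351 with SAHA, 865 with sonidegib and 1864 in control. In the same order of groups KRT18 averaged 670.4, 1615, 739 and 1458 TPM, EPCAM 192, 251, 188 and 336, and KRT5 452, 507, 489 and 579. The list did not move as a set: CDH1 was lowest in control, at 33.5, 46.9, 23.9 and 20.8 TPM, and EGFR averaged 577, 569, 658 and 623. Of 3 leukocyte markers none was at 0 in all libraries, PTPRC was at or below 0.01 TPM, and their sum was 8.98 to 10.1 TPM in the combination, 9.20 to 11.6 with SAHA, 10.7 to 12.3 with sonidegib and 3.61 to 4.56 in control, nearly all of it CD68. Of 4 fibroblast and endothelial markers none was at 0 in all libraries, and their sum, mostly COL1A1, was 9.31 to 10.3 TPM in the combination, 10.6 to 13.3 with SAHA, 4.82 to 8.03 with sonidegib and 3.12 to 4.78 in control. The part of these 3 lists in the results was not tested. The 17 genes for 5S ribosomal RNA were listed at 0 in the 6 libraries without sonidegib, while their sum was 1488 to 12641 TPM in the 6 with it. A difference in preparation between these sets of libraries therefore cannot be told apart from sonidegib in the comparisons of sonidegib with control, of the combination with control and of the combination with SAHA. The comparisons of SAHA with control and of the combination with sonidegib each stay within a set. The mitochondrial ribosomal RNA took 2.41 to 2.86% of TPM in the combination, 1.18 to 1.35% with SAHA, 2.06 to 2.48% with sonidegib and 0.565 to 0.670% in control. SAHA and control did not overlap in it, and its part in the results was not tested beyond this: without ribosomal RNA and mitochondrial genes none of the calls of the Notch genes in limma was lost or gained.

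NOTCH3 (ENSG00000074181, GRCh38 chromosome 19, 15159038 to 15200981, minus strand) was the most abundant receptor in every library. Its values were 86.09, 79.63 and 77.30 TPM in the combination, 44.38, 40.68 and 41.74 TPM with SAHA, 164.47, 165.27 and 164.24 TPM with sonidegib, and 97.07, 91.79 and 111.61 TPM in control. The 4 groups did not overlap, with sonidegib highest, then control, the combination and SAHA. NOTCH3 fell with SAHA to a mean TPM ratio of 0.42 to control (log2 -1.22 ± 0.071, adjusted p = 6.98e-08). It rose with sonidegib, at a ratio of 1.64 to control (log2 0.72 ± 0.071, adjusted p = 6.99e-06). The combination lay between these responses: it was 1.92 times the SAHA level (log2 0.92, adjusted p = 1.29e-06), 0.49 times the sonidegib level (log2 -1.02, adjusted p = 1.64e-06) and 0.81 times the control level (log2 -0.30 ± 0.071, adjusted p = 0.00318). After quantile normalization the difference between the combination and control was no longer called (log2 -0.109, adjusted p = 0.254). In RNA from whole cultures, fewer cells that make a transcript and less of it per cell cannot be told apart.

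NOTCH1 (ENSG00000148400, chromosome 9, 136494433 to 136545786, minus strand), the receptor best known from T cell leukaemia, was the least abundant of the 3. It was at 6.29, 6.02 and 6.67 TPM in the combination, 3.25, 3.45 and 3.10 TPM with SAHA, 6.35, 7.15 and 7.46 TPM with sonidegib, and 3.95, 3.60 and 4.09 TPM in control. The libraries with sonidegib lay above all libraries without it, and those of the combination and of sonidegib alone overlapped. NOTCH1 rose with sonidegib (log2 0.71 ± 0.092, adjusted p = 5.36e-05) and was also higher in the combination than with SAHA (0.78 ± 0.092, adjusted p = 3.06e-05) and than in control (0.59 ± 0.092, adjusted p = 0.000162). The SAHA libraries were all below the control libraries, but this difference was not called (-0.19, 95% interval -0.39 to 0.01, adjusted p = 0.0914); 4 of 23 alternatives called it lower.

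NOTCH2 (ENSG00000134250, chromosome 1, 119911553 to 120069626, minus strand) was higher than control in all treated groups. It had 29.47, 25.39 and 29.85 TPM in the combination, 24.21, 24.09 and 23.67 TPM with SAHA, 19.73, 21.69 and 20.06 TPM with sonidegib, and 15.54, 13.24 and 16.22 TPM in control. No groups overlapped, and the order ran from the combination through SAHA and sonidegib to control. NOTCH2 rose with SAHA by 0.65 ± 0.085 (adjusted p = 5e-05), with sonidegib by 0.43 ± 0.085 (adjusted p = 0.00125) and in the combination by 0.87 ± 0.085 (adjusted p = 3.89e-06), all against control on the log2 scale. The combination was above sonidegib by 0.44 (adjusted p = 0.00184). Its difference from SAHA, 0.22 with an adjusted p of 0.0477, was the weakest of these calls. It was not called in 12 of 23 alternatives (adjusted p 0.0534 to 0.139), 9 of which left out a library: combination replicate 1 or 3, SAHA replicate 1, 2 or 3, sonidegib replicate 1, 2 or 3, or control replicate 1. Values without each of these libraries ran from 0.182 to 0.229. NOTCH2NLA, a partial near-identical copy of NOTCH2, averaged 57.2 TPM in the combination, 56.7 TPM with SAHA, 39.6 TPM with sonidegib and 22.8 TPM in control. How reads were divided between the pair is not given in the sources used here, so the values of both genes are uncertain. NOTCH2NLA was also called higher with SAHA (log2 1.29), with sonidegib (0.77) and in the combination (1.30) against control.

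**Figure D1:**
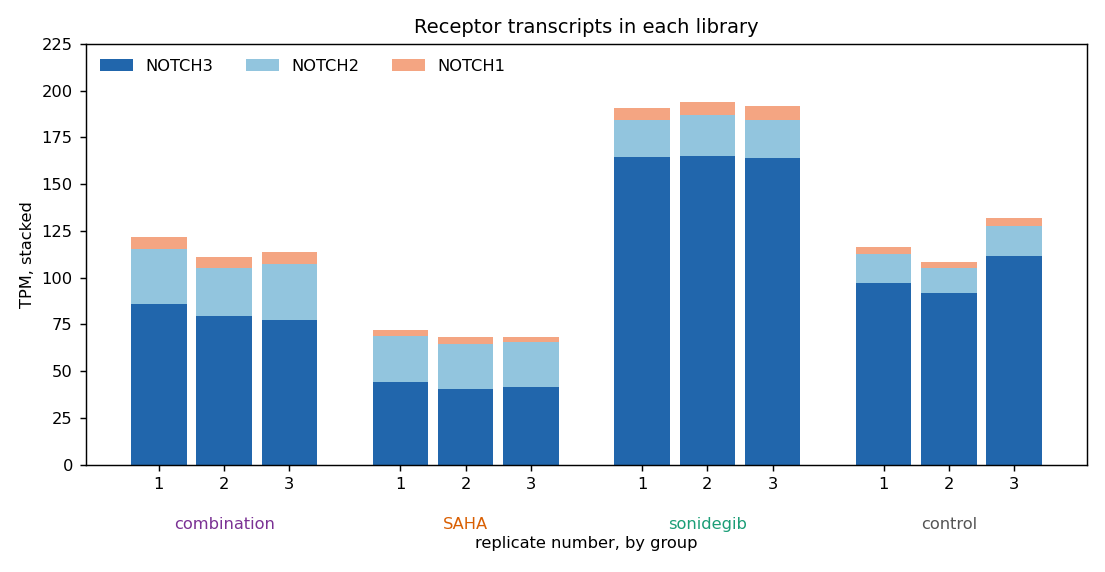
Stacked TPM of NOTCH3, NOTCH2 and NOTCH1 in each of the 12 libraries, by group and replicate number. The NOTCH2 values are uncertain because of its partial copy NOTCH2NLA. The summed receptor level averaged 116 TPM in the combination, 69.5 TPM with SAHA, 192 TPM with sonidegib and 119 TPM in control, and the NOTCH3 part is smallest, in TPM and as a share, in the SAHA libraries.

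Under SAHA NOTCH2 was higher and NOTCH3 lower than control, and the make-up of the receptor pool differed, as the stacked plot of receptor TPM shows. NOTCH3 accounted for 70.1 ± 1.96% of receptor TPM in the combination, 60.8 ± 1.08% with SAHA, 85.7 ± 0.587% with sonidegib and 84.1 ± 0.736% in control. NOTCH2 took 24.4 ± 1.69% in the combination, 34.5 ± 0.807% with SAHA, 10.7 ± 0.446% with sonidegib and 12.6 ± 0.632% in control. All shares and sums here rest on NOTCH2 TPM, which are uncertain because of NOTCH2NLA, and the SD does not cover this. The NOTCH3 share was 23.3 points lower with SAHA than in control (difference -23.3), and 15.6 points lower in the combination than with sonidegib (difference -15.6). With sonidegib, where all 3 receptors rose, it was 1.6 points above control. The libraries did not overlap in any of the 5 pairs of groups, and each pair gave p = 0.100 in a two-sided exact permutation test, the smallest value that 3 against 3 libraries allow. The summed receptor level in the combination, 121.8, 111.0 and 113.8 TPM, overlapped that in control, 116.6, 108.6 and 131.9 TPM.

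JAG1 (ENSG00000101384, chromosome 20, 10637684 to 10673999, minus strand), a ligand of the Jagged type, was higher than control in every treated group. It had 18.61, 19.25 and 21.01 TPM in the combination, 14.04, 12.06 and 13.58 TPM with SAHA, 17.93, 19.18 and 19.84 TPM with sonidegib, and 7.28, 7.31 and 8.92 TPM in control. The combination and sonidegib libraries overlapped, SAHA lay below both, and control was lowest. JAG1 rose by 0.69 ± 0.091 with SAHA (adjusted p = 5.19e-05), by 1.18 ± 0.091 with sonidegib (adjusted p = 1.01e-06) and by 1.23 ± 0.091 in the combination (adjusted p = 4e-07) on the log2 scale. The combination was above SAHA (0.54, adjusted p = 0.000486), while its difference from sonidegib was 0.04, with a 95% interval of -0.16 to 0.25.

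JAG2 (ENSG00000184916, chromosome 14, 105140981 to 105168824, minus strand), the second Jagged ligand, had a similar order of levels at lower TPM. Its values were 8.70, 8.42 and 9.28 TPM in the combination, 6.08, 6.27 and 4.81 TPM with SAHA, 8.94, 10.30 and 9.82 TPM with sonidegib, and 2.58, 2.61 and 4.11 TPM in control. Sonidegib and the combination overlapped, and both lay above SAHA, which lay above control. Mean TPM was 3.12 times control with sonidegib (log2 1.40 ± 0.14, adjusted p = 8.16e-06), 2.84 times in the combination (1.28 ± 0.14, adjusted p = 1.08e-05) and 1.85 times with SAHA (0.73 ± 0.14, adjusted p = 0.000964). The combination exceeded SAHA by 0.55 (adjusted p = 0.00705), and differed from sonidegib by -0.12 with a 95% interval of -0.44 to 0.19. JAG1 and JAG2 together averaged 28.4 ± 1.63 TPM in the combination, 18.9 ± 1.02 TPM with SAHA, 28.7 ± 1.56 TPM with sonidegib and 10.9 ± 1.81 TPM in control. JAG1 made up 69.0% of that sum in the combination, 69.8% with SAHA, 66.2% with sonidegib and 72.0% in control.

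DLL1 (ENSG00000198719, chromosome 6, 170282206 to 170306565, minus strand), a Delta-like ligand, was at or below 0.60 TPM in every library. Its values were 0.39, 0.27 and 0.41 TPM in the combination, 0.60, 0.09 and 0.19 TPM with SAHA, 0.03, 0.12 and 0.01 TPM with sonidegib, and 0.03, 0.00 and 0.01 TPM in control. Each group overlapped its neighbour in the order of means, and a single SAHA library, replicate 1, carried most of that group's level: the difference from control was 0.33 on the log2 scale with it and 0.169 without it. With a mean of 0.179 TPM over the 12 libraries it was below the filter and is the only gene of the 10 that was not tested. In a fit without the filter it was higher in the combination than in control (log2 0.42 ± 0.12, adjusted p = 0.0198), and the other comparisons were not called. The size of this difference depends on the constant added before the log, and was 0.735 with 0.5 and 0.227 with 2 in place of 1. DLL1 overlaps FAM120B on the opposite strand, which averaged 5.14 TPM in the combination, 5.62 with SAHA, 3.05 with sonidegib and 3.11 in control. Whether strand was used in counting is not given in the sources used here, so reads of the pair cannot be told apart.

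HES1 (ENSG00000114315, chromosome 3, 194136145 to 194138732, plus strand), a transcriptional repressor and the best-known direct target of Notch, was the most abundant of the 3 targets. It had 49.29, 46.85 and 50.59 TPM in the combination, 30.01, 24.71 and 26.82 TPM with SAHA, 68.88, 64.67 and 69.15 TPM with sonidegib, and 31.84, 34.51 and 36.91 TPM in control. The groups did not overlap, with sonidegib highest, then the combination, control and SAHA. HES1 fell with SAHA (log2 -0.33 ± 0.077, adjusted p = 0.00308) and rose with sonidegib, at 1.96 times the control level (0.95 ± 0.077, adjusted p = 1.37e-06). In the combination it was above control (0.50 ± 0.077, adjusted p = 0.000156) and above SAHA (0.83, adjusted p = 5.4e-06), and below sonidegib (-0.46, adjusted p = 0.000741).

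NRARP (ENSG00000198435, chromosome 9, 137300482 to 137302251, minus strand) encodes an ankyrin repeat protein that is induced by Notch and dampens it by acting on the intracellular domain. Its values were 2.28, 2.09 and 2.07 TPM in the combination, 0.88, 0.88 and 0.70 TPM with SAHA, 4.30, 4.92 and 5.28 TPM with sonidegib, and 1.71, 2.34 and 2.63 TPM in control. All SAHA libraries were below, and all sonidegib libraries above, those of the other groups, while the combination fell within the range of control. NRARP fell with SAHA to 0.37 times the control mean (log2 -0.82 ± 0.14, adjusted p = 0.000305). It rose with sonidegib to 2.17 times control (0.86 ± 0.14, adjusted p = 0.000249). In the combination it was 2.62 times the SAHA mean (0.79, adjusted p = 0.000521) and 0.44 times the sonidegib mean (-0.89, adjusted p = 0.000404). Between the combination and control the difference was -0.03, with a 95% interval of -0.33 to 0.27 and a sign that changed in 5 of 23 alternatives, among them those without control replicate 2 (0.004) or control replicate 3 (0.064).

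HEY1 (ENSG00000164683, chromosome 8, 79764010 to 79767863, minus strand), a repressor of the same family as HES1, had another order. It was at 3.51, 2.63 and 2.94 TPM in the combination, 2.17, 1.46 and 1.60 TPM with SAHA, 0.66, 0.63 and 0.90 TPM with sonidegib, and 0.78, 0.87 and 0.93 TPM in control. The combination was above SAHA, and SAHA above both other groups, which overlapped. HEY1 rose with SAHA, at 2.03 times the control mean (log2 0.55 ± 0.15, adjusted p = 0.00822, and 0.362 with adjusted p = 0.0574 after quantile normalization). Sonidegib alone gave no call (-0.11, 95% interval -0.44 to 0.23). In the combination HEY1 was 3.52 times control (1.11 ± 0.15, adjusted p = 5.69e-05), 4.15 times sonidegib (1.22 ± 0.15, adjusted p = 9.47e-05) and 1.74 times SAHA (0.56 ± 0.15, adjusted p = 0.00952). No library exceeded 3.51 TPM of HEY1. Its means were below 1 TPM with sonidegib (0.730) and in control (0.860). It therefore passed the filter of 1 TPM only through the groups given SAHA, where it was high. Its calls here and in the counts below carry that limit. In the fit without the filter its calls between pairs of groups were kept, while its interaction was not called (0.664, adjusted p = 0.0549).

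RBPJ (ENSG00000168214, chromosome 4, 26163455 to 26435131, plus strand), the factor through which all Notch receptors act on DNA, varied least. It was at 17.99, 17.46 and 22.14 TPM in the combination, 17.49, 14.70 and 18.64 TPM with SAHA, 13.66, 15.11 and 14.41 TPM with sonidegib, and 18.51, 14.48 and 21.26 TPM in control. Only the combination and sonidegib did not overlap. Its group means spanned 0.39 on the log2 scale, against 0.87 to 1.94 for the other tested genes of the set. RBPJ was higher in the combination than with sonidegib (0.39 ± 0.14, adjusted p = 0.0442), and the other 4 pairs were not called. That call was lost in 9 of 23 alternatives (adjusted p 0.0547 to 0.157), 7 of them without combination replicate 1 or 3, SAHA replicate 1, sonidegib replicate 1, 2 or 3, or control replicate 1 (0.284 to 0.426). Against control the sonidegib value was -0.30 (adjusted p = 0.0875) and was called without control replicate 2 (-0.438, adjusted p = 0.0144). Between the combination and SAHA it was 0.17, not called, but called higher after median-of-ratios scaling (0.286, adjusted p = 0.0413), 75th percentile scaling (0.305, adjusted p = 0.0391) and quantile normalization (0.302, adjusted p = 0.0326). RBPJL, a paralog, and the annotated pseudogenes of RBPJ reached at most 0.22 TPM.

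**Figure D2:**
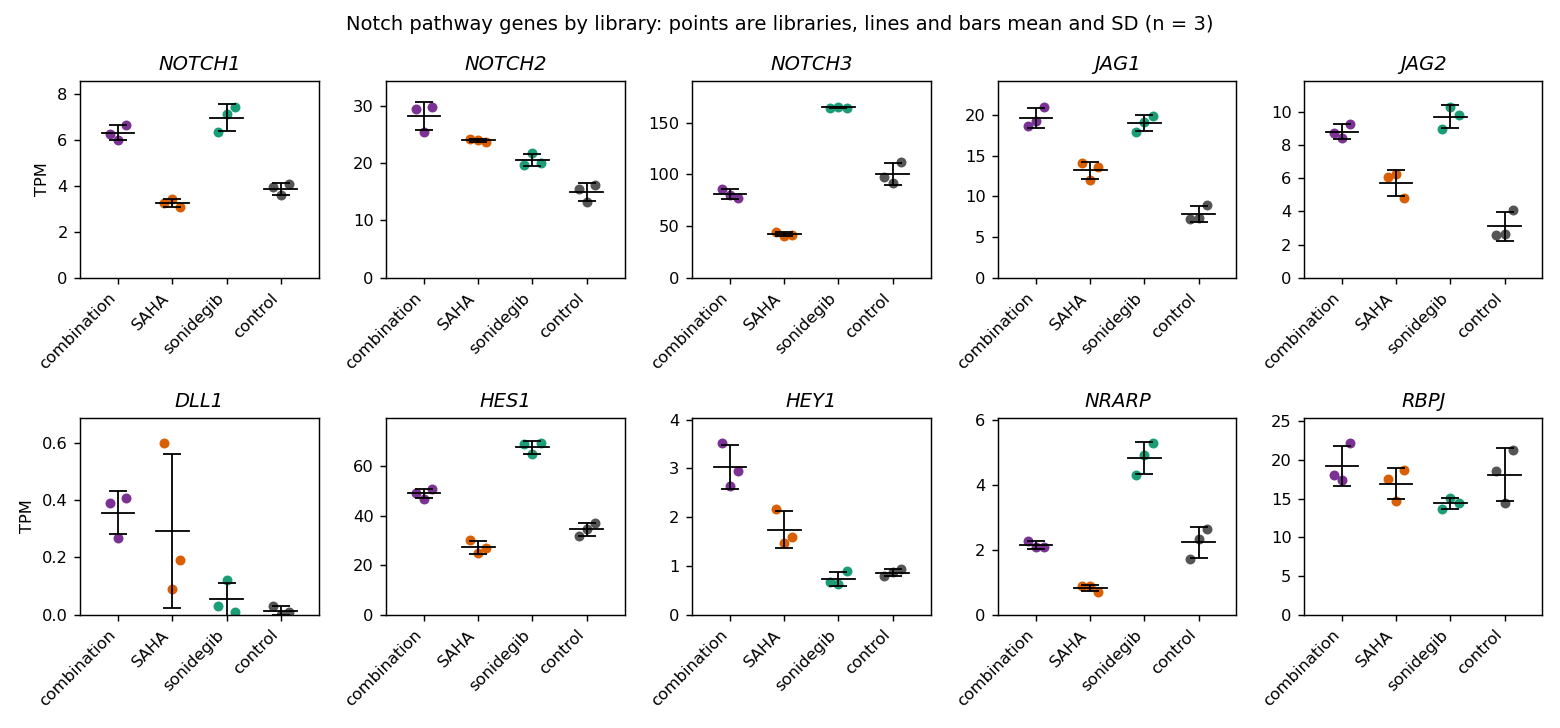
TPM of each of the 10 genes in the 12 libraries, with a linear axis of its own per gene; points are libraries, horizontal lines group means and bars SD (n = 3). By group mean, NOTCH1, NOTCH3, HES1 and NRARP are highest with sonidegib and lowest with SAHA, and NOTCH2, JAG1, JAG2 and DLL1 are lowest in control. NOTCH2, JAG1, DLL1, HEY1 and RBPJ have their highest mean in the combination. Some of these groups overlap their neighbours, as for NOTCH1, JAG1, DLL1 and RBPJ.

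Read by comparison, SAHA divided the genes by direction rather than moving them together, as the plots of TPM per library and of drug responses show. NOTCH2, JAG1, JAG2 and HEY1 were higher than control, and NOTCH3, HES1 and NRARP lower: 4 of 9 tested genes were called higher and 3 lower, where 31.8% and 26.9% of all 13937 genes were called. The median change of the 9 was -0.08, against 0.05 over all genes tested. Calls between the SAHA and control libraries were thus common among all genes, and these counts do not set the Notch genes apart.

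Under sonidegib the receptors, both Jagged ligands, HES1 and NRARP were called higher than control, 7 of 9 genes, and none lower, where 26.1% of all genes were called higher and 29.2% lower. The share called higher was thus larger than among all genes, a difference that was not tested. The list was chosen with earlier results of these data known, so this and the other counts beside all genes are descriptions only. The median change of the 9 was 0.72, against -0.02 over all genes. JAG2 and JAG1 had the widest changes, and HEY1 and RBPJ were the genes without a call. Beside the count of 0 lower genes, limma gave 0 at an unadjusted p under 0.05, and RBPJ was called lower without control replicate 2 (-0.438).

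In the combination 6 genes were called higher than control (NOTCH1, NOTCH2, JAG1, JAG2, HES1 and HEY1) and 1 lower (NOTCH3), where 29.7% of all genes were higher and 34.0% lower. The median of the 9 was 0.59, against -0.02 over all genes. Against SAHA alone 8 of 9 genes, all but RBPJ, were higher and 0 lower (0 also at an unadjusted p under 0.05 in limma), where 18.0% of all genes were higher and 33.0% lower. The median of the 9 was 0.56, against -0.12 over all genes. Rescaling by median of ratios, by the 75th percentile or by quantiles moved that overall median by 0.106 to 0.118, and higher calls were then 48.4% to 50.2% of all calls, against 35.3% before. Without ribosomal RNA and mitochondrial genes the share was 35.8%. The count of higher Notch genes stayed between 7 and 9. Against sonidegib alone NOTCH2, HEY1 and RBPJ were higher and NOTCH3, HES1 and NRARP lower, 3 of 9 each way, where 17.5% and 21.0% of all genes were called. These comparisons share groups, so their counts are not independent of each other.

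**Figure D3:**
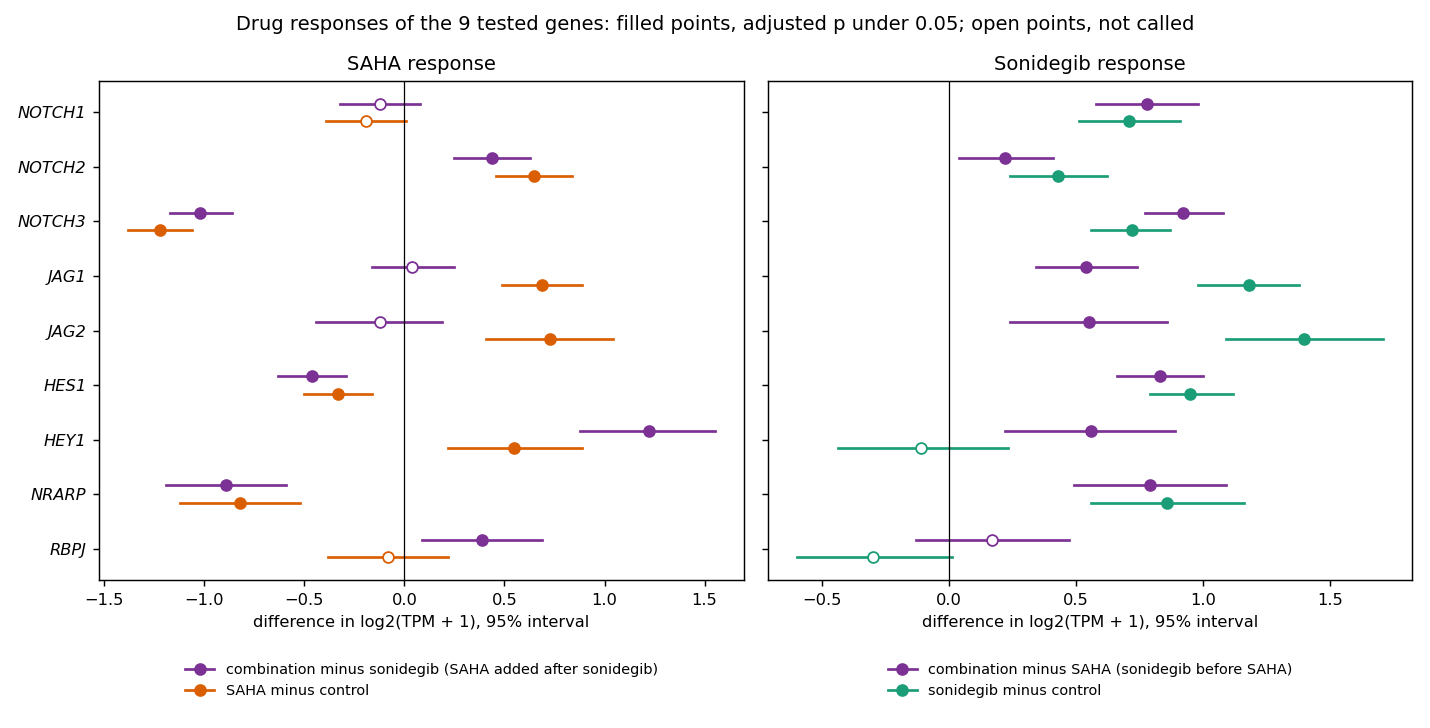
Log2 differences (of TPM + 1) with 95% intervals for the 9 tested genes. Left, the SAHA response with sonidegib pretreatment (combination minus sonidegib) above that without it (SAHA minus control); right, the sonidegib response with SAHA (combination minus SAHA) above that without it (sonidegib minus control). Filled points have an adjusted p under 0.05: NOTCH3, HES1 and NRARP lie left of 0 in both SAHA responses and right of 0 in both sonidegib responses.

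Whether SAHA acted differently after sonidegib was tested by the interaction, the combination minus sonidegib minus SAHA plus control. It was called for 3 of the 9 genes, 1 higher and 2 lower, where 11.8% and 19.7% of all genes were called. Higher calls made up 37.5% of all interaction calls, 48.6% to 50.3% after the same 3 rescalings, and 34.6% without ribosomal RNA and mitochondrial genes. JAG1 had an interaction of -0.64 ± 0.13 (adjusted p = 0.003): the SAHA difference was 0.04 after sonidegib and 0.69 without it. For JAG2 the interaction was -0.85 ± 0.20 (adjusted p = 0.00775), with SAHA differences of -0.12 after sonidegib and 0.73 without it. Both ligands were thus lower in the combination than the sum of the separate responses on this scale. HEY1 went the other way, with SAHA changes of 1.22 after sonidegib and 0.55 without it (interaction 0.66 ± 0.21, adjusted p = 0.0353). The HEY1 interaction missed the threshold in 8 of 22 alternatives, 7 of them without combination replicate 1, SAHA replicate 2 or 3, sonidegib replicate 1 or 2, or control replicate 2 or 3 (0.579 to 0.659, adjusted p 0.0583 to 0.0727). For NOTCH3 (0.21, 95% interval -0.02 to 0.43), HES1 (-0.13, -0.37 to 0.11), NOTCH1 (0.07, -0.21 to 0.35), NOTCH2 (-0.21, -0.47 to 0.06) and NRARP (-0.07, -0.49 to 0.35) no difference between the SAHA responses was called, and the intervals show what size remains possible. RBPJ had 0.46 (adjusted p = 0.0906), which was called in 5 of 22 alternatives, including that without control replicate 2 (0.608, adjusted p = 0.0229). The interaction compares SAHA responses between the libraries with and without 5S ribosomal RNA, and the part of that difference in it was not tested.

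**Figure D4:**
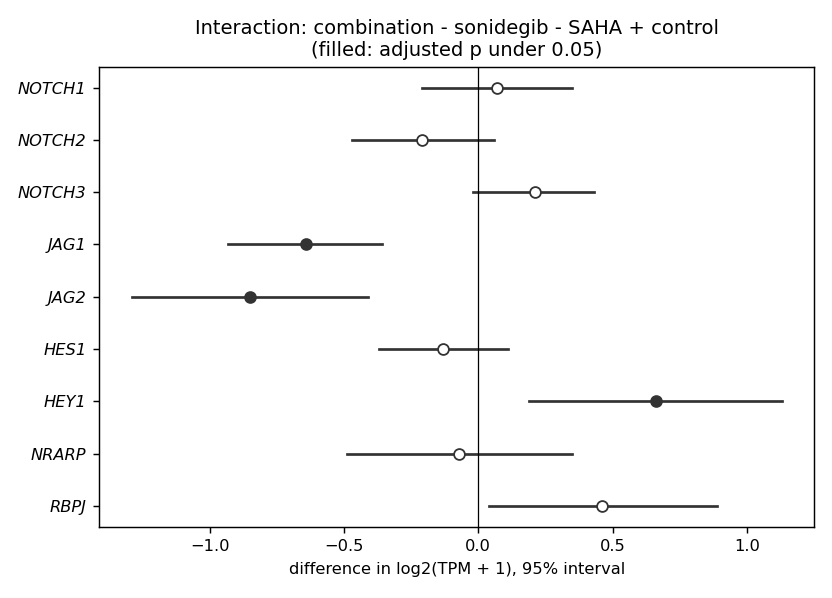
Interaction per gene on the log2(TPM + 1) scale, with 95% intervals; filled points have an adjusted p under 0.05. JAG1 (-0.64) and JAG2 (-0.85) lie left of 0 and HEY1 (0.66) right of it, and the interval of RBPJ is above 0 before adjustment only.

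Genes with the most similar profile were listed for the 3 Notch genes with the widest range of group means, by Pearson's r of log2(TPM + 1) over the 12 libraries. These libraries form 4 clusters, so r mostly reflects the 4 group means and is given with no p. For NOTCH3 they were CMAHP (r = 0.992), MRPS18B (0.991) and STRN4 (0.986). NRARP was most like NR1D1 (0.981), TPD52L1 (0.979) and WEE1 (0.975). JAG2 was most like GRAMD1A (0.981), SPA17 (0.980) and TUBG2 (0.975). STRN4, for example, averaged 39.7 TPM in the combination, 30.4 TPM with SAHA, 58.2 TPM with sonidegib and 48.7 TPM in control, which is the order of NOTCH3 at a narrower range.

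The wider pathway was described by a list of 46 further genes in 6 roles, of which 37 were tested. Against control 15 were called higher and 9 lower with SAHA, 4 higher and 11 lower with sonidegib, and 7 higher and 16 lower in the combination. Of all genes, 31.8% were higher and 26.9% lower with SAHA, 26.1% and 29.2% with sonidegib, and 29.7% and 34.0% in the combination. The median change of the 37 was -0.00 with SAHA (0.05 over all genes), -0.00 with sonidegib (-0.02 over all genes) and -0.12 in the combination (-0.02 over all genes).

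Among the other HES and HEY repressors, 4 of 5 tested were called higher with SAHA and 1 lower, 1 higher and 2 lower with sonidegib, and 2 higher and 1 lower in the combination, against control and beside the shares of all genes just given. Against SAHA 4 of the 5 were lower in the combination and the other was not called, where 18.0% of all genes were higher and 33.0% lower. One of the 4, HES4, was not called after any of the 3 rescalings (-0.261 to -0.208), or without SAHA replicate 1 or 2 or combination replicate 1 or 3 (-0.386 to -0.257). HEY2, a close relative of HEY1, had 2.06 ± 0.0400 TPM in the combination, 2.11 ± 0.133 TPM with SAHA, 0.513 ± 0.0306 TPM with sonidegib and 0.453 ± 0.115 TPM in control. It rose with SAHA by 1.10 ± 0.13 on the log2 scale (adjusted p = 2.5e-05 in limma). HEY2 passed the filter of 1 TPM only through the groups given SAHA, where it was high, which limits its place among the 4 genes called higher. In the fit without the filter this call was kept. HES7, an oscillator of somite formation, rose by 1.37 ± 0.20 with SAHA (adjusted p = 0.000104), to 4.77 TPM against 1.20 TPM in control. HES2 rose by 0.78 ± 0.16 with SAHA (adjusted p = 0.00131) but was at 5.26 TPM in the combination and 5.90 TPM in control. HES4 went the opposite way: it was at 54.6 ± 2.80 TPM in the combination, 72.3 ± 13.3 TPM with SAHA, 84.1 ± 11.9 TPM with sonidegib and 116 ± 8.21 TPM in control, and fell in the combination by 1.07 on the log2 scale (adjusted p = 2.04e-05).

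Among genes that process the receptor, FURIN, the protease that cuts Notch receptors on their way to the surface, rose with SAHA by 1.08 ± 0.11 (adjusted p = 4.65e-06), to 17.9 TPM, against 7.41, 7.29 and 9.29 TPM in control. LFNG, a Fringe enzyme that adds sugars to the receptor, was at 2.10 ± 0.200 TPM in the combination, 1.13 ± 0.196 TPM with SAHA, 1.20 ± 0.188 TPM with sonidegib and 2.20 ± 0.201 TPM in control: it was called lower than control with SAHA (-0.59) and with sonidegib (-0.54), and the difference of the combination from control was -0.05, with a 95% interval of -0.34 to 0.25. Of the 7 listed genes for ADAM proteases and gamma-secretase, 4 were called higher and 2 lower with SAHA, 0 higher and 2 lower with sonidegib, and 2 higher and 3 lower in the combination, all against control and beside the same shares of all genes. NCSTN, the nicastrin subunit, was called lower than control in the combination (11.2 TPM, log2 -1.11), with SAHA (10.7 TPM, log2 -1.17) and with sonidegib (10.5 TPM, log2 -1.19), against 25.3 TPM in control. PSEN2, a catalytic subunit, was called lower than control in both groups given sonidegib, at 4.78 TPM in each, against 10.7 TPM with SAHA and 8.17 TPM in control.

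In the nucleus, EP300, an acetyltransferase recruited by the Notch complex, was lower in the combination than in control (log2 -1.09 ± 0.15, adjusted p = 7.88e-05), at 7.38 ± 0.635 TPM against 17.0 ± 3.52 TPM. EP300 was also called lower than control with SAHA (10.8 TPM, log2 -0.61) and with sonidegib (10.2 TPM, log2 -0.67). KAT2B, another acetyltransferase, rose with SAHA by 1.06 ± 0.19 (adjusted p = 0.000612), to 3.22 TPM against 1.05 TPM in control. The Neuralized-type ubiquitin ligases, which act on the endocytosis of ligands, split. NEURL1B was at 19.2 ± 1.63 TPM in the combination, 12.5 ± 0.565 TPM with SAHA, 16.0 ± 0.670 TPM with sonidegib and 4.17 ± 0.576 TPM in control. On the log2 scale it was above control by 1.97 in the combination, 1.39 with SAHA and 1.72 with sonidegib, with an adjusted p of at most 1.98e-07 in limma. NEURL1 was at 2.84 ± 0.215 TPM in the combination, 6.56 ± 0.229 TPM with SAHA, 3.17 ± 0.115 TPM with sonidegib and 6.79 ± 0.426 TPM in control, and was called lower in both groups given sonidegib.

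**Figure D5:**
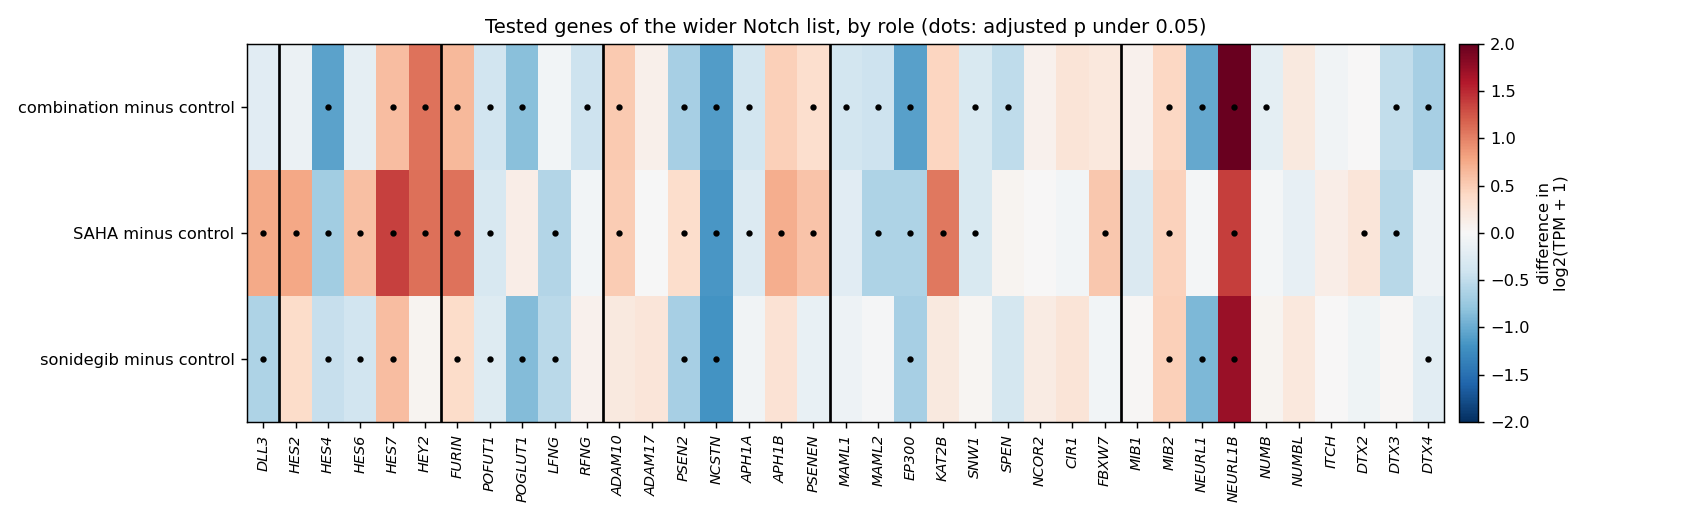
Log2 differences (of TPM + 1) from control for the 37 tested genes of the wider list, in the combination (top), with SAHA (middle) and with sonidegib (bottom); red is higher and blue lower than control, dots mark an adjusted p under 0.05, and black lines separate the roles. From left these are other ligands, HES and HEY factors, receptor processing, cleavage, nuclear cofactors, and trafficking and ubiquitin, with NEURL1B the strongest red and NCSTN blue in all 3 comparisons.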

How the data were processed

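Gene expression was measured in 12 MDA-MB-468 libraries, 3 each for the combination, SAHA, sonidegib and control, grouped by their titles. Total RNA was extracted with TRIzol, per the labels' protocols. The deposited table holds TPM per gene and library, which the authors scaled over all genes; Bowtie2 2.4.1 and the build GRCh38 are named per the submitters' processing notes, and the quantifier, annotation release and strandedness are not given in the sources used here. TPM keep no counts, so depth and counting error are unknown; each library summed to between 999999 and 1000001 TPM.

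Values were analysed as log2(TPM + 1) in limma 3.58.1 (R 4.3.3) over the 13937 genes that averaged 1 TPM or more, with 4 group means, 8 residual degrees of freedom and an intensity trend. Tests were two-sided and adjusted by Benjamini-Hochberg over all tested genes within a comparison; calls have an adjusted p under 0.05. The limma steps were tested on simulated data for the comparison of SAHA with control. Of 200 genes changed by a log2 of 1, 171 were recovered, and 6 of 177 calls were false. This covers that comparison and size of change only. Shares of receptor TPM were compared by exact permutation. Of the gene identifiers, 58611 matched GENCODE release 29, used for coordinates. RefSeq promoters were searched for motifs in Python 3.11.15.

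The 10 genes, the 46 further pathway genes and the markers were chosen with earlier results of these data known. Of the 46, those called with a log2 change of at least 1 in size in any comparison are named. Results of some genes are not reported here. The 23 alternatives changed the pseudocount (0.5 or 2), the filter, the scaling, the variance trend, the replicate block or the groups fitted, or left out each library in turn.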

Additional observations from a re-analysis of the deposited data

Results flagged for a closer look

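Each result here is listed because the response to SAHA differed between cells given sonidegib and cells not given it. This was judged by the interaction test in limma (combination minus sonidegib minus SAHA plus control, log2 scale, adjusted p under 0.05 over all tested genes). Such calls were common, with 11.8% of all 13937 genes higher and 19.7% lower. Of the 9 tested core genes, 1 was called higher, HEY1 (0.66), and 2 lower, JAG1 (-0.64) and JAG2 (-0.85). These counts do not set the core genes apart. JAG1 and JAG2 kept the call in all 22 alternatives, and HEY1 lost it in 8, among them the fit without a filter. HEY1 passed the filter only through the groups given SAHA.

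Of the 37 tested genes of the wider list, 2 had a higher and 9 a lower interaction, beside 11.8% and 19.7% of all genes. Only those with a called log2 change of at least 1 in some comparison are listed. Among them the interaction was negative for HES2 (-1.25), HES7 (-1.37), FURIN (-0.79), PSEN2 (-0.35), KAT2B (-0.83) and NEURL1B (-1.14). It was positive for LFNG (1.09) and NCSTN (1.25). NOTCH2NLA, the partial copy of NOTCH2, had -0.76. The calls were lost in 14 of 22 alternatives for PSEN2 (adjusted p 0.0525 to 0.199) and in 11 for KAT2B. All of these are differences across the libraries with and without 5S ribosomal RNA, whose part was not tested. Groups of 3 libraries are too small for a check of single outlying libraries.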

How the results depend on the processing

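Of the 54 results of the 9 tested core genes, 38 were called; 33 of these kept direction and call in every alternative and none changed sign. The 5 exceptions were NOTCH2 and RBPJ between the combination and a single drug, NOTCH3 in the combination, HEY1 under SAHA and the HEY1 interaction. Calls were also common among all 13937 genes. Against control 31.8% were higher and 26.9% lower with SAHA, 26.1% and 29.2% with sonidegib, and 29.7% and 34.0% in the combination. The combination had 18.0% and 33.0% against SAHA, and 17.5% and 21.0% against sonidegib. For the interaction these were 11.8% and 19.7%. The share of all genes that kept their calls in the alternatives is not given here. Counts of core genes called moved as follows. After quantile normalization 0 were lower in the combination than in control, where 1 was. The number with a higher interaction, 1, was 0 without a filter and 2 after median-of-ratios, 75th percentile or quantile scaling, where RBPJ was added. With libraries left out in turn it ranged from 0 to 1, and the number lower with sonidegib than in control ranged from 0 to 1. Same-numbered libraries of different groups did not deviate together (r -0.06 to 0.11 over 18 pairs, against -0.11 to 0.1 over 36 others), and 0 libraries correlated best with their own number in every other group, and the numbers were not taken to pair the libraries. A replicate block gave 1 gene lower with sonidegib (RBPJ, -0.295, adjusted p = 0.0359) and 2 with a higher interaction (HEY1 and RBPJ, 0.465 for RBPJ), and changed no other count of core genes by over 1.5 times.

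Only uncalled values changed sign. With single libraries left out, NRARP between the combination and control ranged from -0.147 to 0.064, its interaction from -0.161 to 0.050, RBPJ from -0.222 to 0.040 under SAHA and from -0.053 to 0.209 in the combination, and JAG1 between the combination and sonidegib from -0.003 to 0.080. The signs that changed were as follows. For NRARP between the combination and control values became 0.011 (median-of-ratios), 0.029 (75th percentile), 0.015 (without ribosomal RNA and mitochondrial genes), 0.004 and 0.064 (without control replicate 2 or 3). Its interaction became 0.027 (pseudocount 0.5), 0.115 (quantile) and 0.050 (without control replicate 1). RBPJ turned to 0.040 and 0.014 under SAHA (without control replicate 3 or SAHA replicate 2) and to -0.053 and -0.012 in the combination (without control replicate 2 or combination replicate 3), and JAG1 to -0.003 between the combination and sonidegib (without combination replicate 3). The causes were not tested. Of 56 called results of NOTCH2NLA and the named genes of the wider list, 46 kept their call throughout. Calls of the other genes of the wider list were not put through the alternatives.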
